A study of Homo sapiens with 24 samples.

Results

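The comparison described here sets the 6 RNA samples of ARPE-19 cells given an siRNA against Nrf2 beside the 6 given none, with the presence or absence of Pink1 siRNA as a covariate. ARPE-19 is a long-used human line derived from the retinal pigment epithelium, the pigmented cell layer behind the photoreceptors. The arm with Nrf2 siRNA holds the groups Nrf2 siRNA and Nrf2-Pink1 siRNA, in which both siRNAs were given. The arm without it holds Scramble siRNA, a control siRNA, and Pink1 siRNA. Each group has 3 biological samples with 2 technical replicates each, so the comparison uses all 24 deposited samples of the series, averaged to 12. The sources do not say whether the biological samples came from separate cultures, so p-values measure the spread between these samples. The labels use the word knockout, but the series design speaks of siRNA, and knockdown is what is described here. The growth protocol speaks of scratch wounding, and no source says if the RNA came from wounded cells. Of 24053 gene identifiers in the table, 13810 averaged 1 TPM or more and were tested. TPM is a level per transcript length, expressed as a share of the sample's total.

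NRF2, the protein made from NFE2L2, is a transcription factor held low by KEAP1, which delivers it to a ubiquitin ligase for destruction. Under oxidative or electrophilic stress it escapes, pairs with a small MAF protein and switches on genes that carry an antioxidant response element. Their products reduce quinones, keep thioredoxin and glutathione reduced, supply NADPH and handle heme and iron. The retinal pigment epithelium lives under strong light and high oxygen use, and NRF2 is widely studied there as a guard against oxidative damage. PINK1 is a kinase that marks damaged mitochondria for removal.

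Column sums lay between 999678 and 999945 TPM, and the number of reads behind each value is unknown. Across genes, Pearson's r was 0.940 to 0.965 for samples of the same group and 0.931 to 0.964 for samples of different groups. A single identifier, ENSG00000226958, which has no entry in the name table, took 15.5% to 41.4% of all TPM in the 6 samples with Nrf2 siRNA and 24.9% to 36.4% in the 6 without it. Nrf2-Pink1 siRNA replicate 1 held the highest share and Nrf2-Pink1 siRNA replicate 3 the lowest. Of 22 genes listed for pigment epithelium identity, 19 had values and 15 averaged 1 TPM or more. MITF, OTX2, KRT8 and KRT18 were present in every sample, the last pair being keratins of simple epithelia at large. RPE65, the isomerase of the visual cycle that defines mature pigment epithelium, was at or below 0.36 TPM. The levels of the further markers RLBP1, BEST1, PMEL, TYR and SERPINF1 are not given here. Of 11 blood and immune markers only CD68 was high enough to test, and PTPRC, the pan-leukocyte marker, was at or below 0.445 TPM. The summed blood and immune markers ranged from 34.3 to 105 TPM with Nrf2 siRNA and from 19.5 to 38.4 TPM without it, nearly all of it CD68, a lysosomal protein. CD68 stood at 42.3, 105 and 52.7 TPM with Nrf2 siRNA and 34.1, 34.8 and 52.5 TPM with Nrf2-Pink1 siRNA, against 19.2, 33.8 and 37.9 TPM with scramble and 25.2, 30.5 and 30.9 TPM with Pink1 siRNA (log2 difference 0.75, limma adjusted p = 0.169). Its part in the results below was not tested.

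The first question was whether the siRNA lowered its own message. NFE2L2 (ENSG00000116044) stood at 25.0, 11.1 and 23.9 TPM with Nrf2 siRNA and 22.2, 30.1 and 34.4 TPM with Nrf2-Pink1 siRNA. It stood at 89.2, 74.3 and 78.5 TPM with scramble and 64.1, 70.4 and 71.6 TPM with Pink1 siRNA. All 6 samples with the siRNA lay below all 6 without it, at 32.7% of their mean (log2 difference -1.64, SE 0.202, limma adjusted p = 0.00126). In bulk RNA, fewer cells with the message and less message per cell cannot be told apart. An exact two-sided permutation test within the Pink1 states gave p = 0.005, the smallest value that its 400 arrangements allow. PINK1 (ENSG00000158828) is not the target of this comparison. It stood at 66.6, 50.7 and 54.3 TPM with Nrf2 siRNA against 53.9, 57.7 and 55.8 TPM with scramble, and at 15.3, 20.5 and 20.2 TPM with Nrf2-Pink1 siRNA against 13.2, 12.4 and 18.3 TPM with Pink1 siRNA (log2 difference 0.18, limma adjusted p = 0.651). KEAP1, the small MAF genes MAFF, MAFG and MAFK, and the other 5 genes of the NRF2 complex list did not pass the test, with log2 differences from -0.20 to 0.36.

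Over the whole transcriptome limma called 109 of 13810 genes at an adjusted p under 0.05, which is 0.789% of those tested. Of these, 58 were higher with Nrf2 siRNA (0.420% of genes tested) and 51 lower (0.369%). A change of 2-fold or more was seen in 26 of them. The median log2 difference of all genes was 0.002. In 99 of the 109 the samples with and without Nrf2 siRNA were apart within both Pink1 states, as they were in 2.27% of all genes tested, and in 81 all 12 samples were apart. The calls were made on these same values, which favours genes with samples apart. The count of calls depended on single samples. It was 75, 64 and 48 without Nrf2 siRNA replicate 1, 2 or 3, and 223, 86 and 108 without Nrf2-Pink1 siRNA replicate 1, 2 or 3. It was 54, 43 and 52 without scramble replicate 1, 2 or 3, and 60, 60 and 95 without Pink1 siRNA replicate 1, 2 or 3. In all 12 of these fits 39 of the 109 genes were called. Without Nrf2-Pink1 siRNA replicate 1, 75.8% of the calls were higher, and without Nrf2-Pink1 siRNA replicate 3 40.7% were, against 53.2% with all samples.

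Among the NRF2 targets that reduce quinones and carbonyls, NQO1 and AKR1C3 fell. NQO1, the quinone reductase used as a standard reporter of NRF2 activity, stood at 49.7, 40.3 and 43.5 TPM with Nrf2 siRNA and 46.6, 61.9 and 72.4 TPM with Nrf2-Pink1 siRNA, against 153, 166 and 163 TPM with scramble and 150, 191 and 179 TPM with Pink1 siRNA. The highest sample with Nrf2 siRNA, at 72.4 TPM, lay far under the lowest sample without it, at 150 TPM. The log2 difference was -1.68 (SE 0.122, limma adjusted p = 2.11e-05, exact permutation p = 0.005). AKR1C3, an aldo-keto reductase of steroids and prostaglandins, fell to 23.4, 23.9 and 21.8 TPM with Nrf2 siRNA and 19.5, 31.2 and 31.4 TPM with Nrf2-Pink1 siRNA, against 54.0, 57.5 and 49.8 TPM with scramble and 46.9, 45.5 and 40.8 TPM with Pink1 siRNA (log2 difference -0.95, SE 0.134, limma adjusted p = 0.00431). AKR1C3 has near-identical relatives, and the handling of reads shared with them is not given in the sources used here. Of the 8 genes of this list that were tested, these 2 fell and 6 did not pass. The list's median log2 difference was -0.37.

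In the thioredoxin system, which hands electrons from NADPH to peroxiredoxins and other oxidised proteins, TXNRD1 alone of 5 genes passed. TXNRD1, the cytosolic thioredoxin reductase, stood at 307, 246 and 284 TPM with Nrf2 siRNA and 301, 383 and 355 TPM with Nrf2-Pink1 siRNA, against 530, 514 and 497 TPM with scramble and 499, 549 and 574 TPM with Pink1 siRNA (log2 difference -0.765, SE 0.101, limma adjusted p = 0.00226). All 6 samples with the siRNA lay below all 6 without it. TXN, PRDX1, SRXN1 and PRDX6 had log2 differences of -0.055, -0.15, -0.15 and -0.02. Of the 6 NADPH-supplying genes, TKT and ME1 fell. TKT, the transketolase of the pentose phosphate pathway, stood at 229, 198 and 225 TPM with Nrf2 siRNA and 280, 281 and 92.6 TPM with Nrf2-Pink1 siRNA, against 390, 443 and 475 TPM with scramble and 412, 506 and 586 TPM with Pink1 siRNA (log2 difference -1.18, SE 0.230, limma adjusted p = 0.0306). ME1, the cytosolic malic enzyme, stood at 18.2, 15.6 and 15.3 TPM with Nrf2 siRNA and 13.4, 15.9 and 20.3 TPM with Nrf2-Pink1 siRNA, against 26.2, 27.0 and 22 TPM with scramble and 21.9, 26.6 and 22.3 TPM with Pink1 siRNA (log2 difference -0.54, SE 0.114, limma adjusted p = 0.0465). All 12 samples were apart for both genes. The calls of TKT and ME1 rested on few samples. TKT was called in 3 of the 12 fits that leave out a sample, those without Nrf2-Pink1 siRNA replicate 1, 2 or 3 (log2 difference from -1.27 to -0.92 over the 12). ME1 was called in 2, those without Nrf2-Pink1 siRNA replicate 1 or 3 (from -0.61 to -0.49).

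The heme and iron targets gave 1 fall among 7 genes. SLC48A1, a heme transporter of lysosomes, stood at 10.8, 10.8 and 10.5 TPM with Nrf2 siRNA and 11.4, 12.4 and 11.7 TPM with Nrf2-Pink1 siRNA, against 16.7, 17.7 and 17.7 TPM with scramble and 16, 19.1 and 21.4 TPM with Pink1 siRNA (log2 difference -0.64, SE 0.0927, limma adjusted p = 0.00453). HMOX1, the inducible heme oxygenase, did not pass: it stood at 6.88 to 11.9 TPM with Nrf2 siRNA in either Pink1 state and 8.65 to 14.6 TPM without it (limma adjusted p = 0.377). In the list of proteostasis and other targets TRIM16L, a tripartite-motif gene, fell to 6.03, 7.20 and 6.67 TPM with Nrf2 siRNA and 4.92, 11.7 and 5.21 TPM with Nrf2-Pink1 siRNA, against 13.8, 17.5 and 15.4 TPM with scramble and 12.8, 18.1 and 14.8 TPM with Pink1 siRNA (log2 difference -1.09, limma adjusted p = 0.00886). TRIM16, its close copy, had a log2 difference of -0.57 (limma adjusted p = 0.0785), and reads shared by the pair cannot be told apart in TPM. None of the 11 glutathione genes passed, and 3 had an unadjusted p under 0.05, as 11.2% of all genes had. MGST1, a membrane glutathione transferase, had a log2 difference of -0.66 (limma adjusted p = 0.0949). GCLM, the modifier subunit of the first enzyme of glutathione synthesis, had one of -0.44 (limma adjusted p = 0.43). GSTP1, the most abundant of these transferases here, stood at 833 to 1272 TPM with Nrf2 siRNA and 822 to 1331 TPM without it (log2 difference -0.02). Across the 6 lists of NRF2 targets 7 of 46 tested genes fell and 0 rose, where 0.369% of all genes fell. The NADPH list had 0 called genes when any single Nrf2 siRNA, scramble or Pink1 siRNA sample was left out. Without Nrf2-Pink1 siRNA replicate 3 the number called was 3 in the quinone list and 1 in the glutathione list, and without Nrf2-Pink1 siRNA replicate 1 it was 2 in the proteostasis list.

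**Figure D1:**
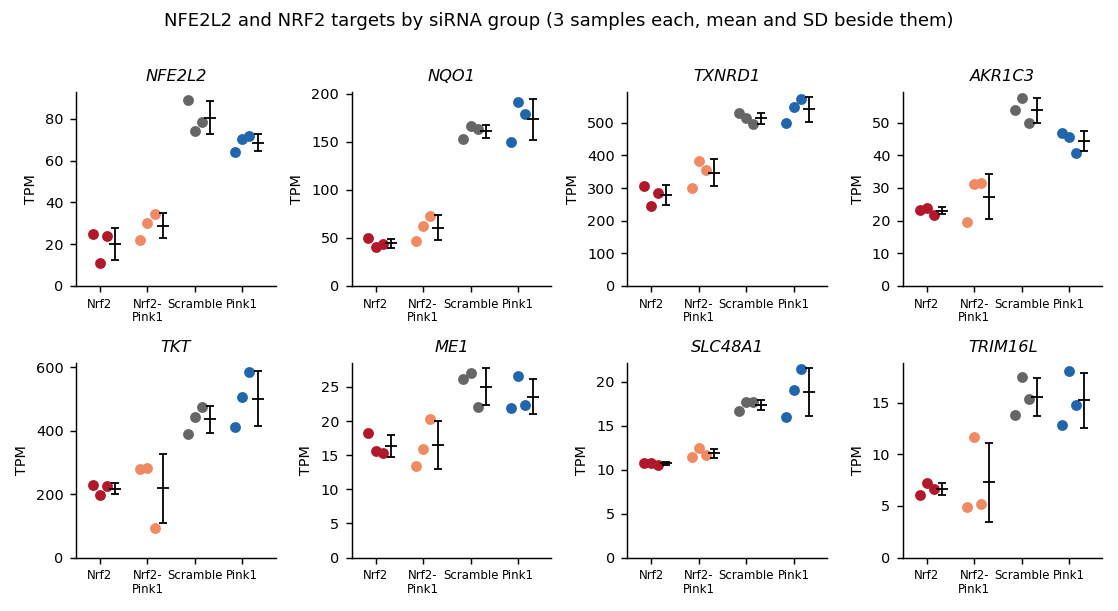
TPM of NFE2L2 and 7 NRF2 targets in each biological sample (vertical axis, from 0), by siRNA group (horizontal axis: Nrf2, Nrf2-Pink1, Scramble, Pink1), with the mean and SD of each group of 3 beside its points. In every panel the samples of both groups with Nrf2 siRNA lie below those of both groups without it, and TKT shows 1 low sample, Nrf2-Pink1 siRNA replicate 3 at 92.6 TPM.

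The letters of the antioxidant response element can be looked for near the starts of these genes. The core TGACNNNGC, searched on both strands in RefSeq windows of 300 bases (250 before to 50 after each annotated start, GRCh38.p14), occurred in 13.3% of all 35116 windows. Genes were then counted as holding a motif when any of their windows did. By that count 19.5% of the 9943 tested genes with a window held it, as did 6 of the 34 genes that fell and have one (17.6%) and 5 of the 41 that rose (12.2%). Of the 33 NRF2 targets with a window, 13 held it (39.4%). A match is a description of letters and not a bound site, and NQO1 has no match in its window. The stretches of TXNRD1 (plus strand, chr12:104215650-104215718 and chr12:104286900-104286968) and ME1 (minus strand, chr6:83431150-83431218) that lie around a match upstream of a start are shown because both genes fell, with the core in capitals.
TXNRD1, first window: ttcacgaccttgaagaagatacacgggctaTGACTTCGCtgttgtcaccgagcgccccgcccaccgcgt
TXNRD1, second window: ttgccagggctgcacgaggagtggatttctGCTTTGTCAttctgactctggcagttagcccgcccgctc
ME1: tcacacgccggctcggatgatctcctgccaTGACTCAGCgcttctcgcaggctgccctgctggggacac

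Among the other falls were a secretory granule protein, enzymes of mitochondrial and amino acid metabolism, and a gap junction protein. SCG2, a granin of secretory granules, stood at 1.74, 2.61 and 1.98 TPM with Nrf2 siRNA and 2.17, 3.68 and 3.44 TPM with Nrf2-Pink1 siRNA, against 13.3, 9.66 and 10.9 TPM with scramble and 9.98, 13.4 and 9.66 TPM with Pink1 siRNA. Its log2 difference of -1.77 (SE 0.152, limma adjusted p = 6.42e-05) was the largest fall among the called genes that averaged 5 TPM or more and had samples apart within each state. IDH2, the mitochondrial NADP-dependent isocitrate dehydrogenase, fell to 24.7, 18.8 and 27.3 TPM with Nrf2 siRNA and 33.1, 32.6 and 32.6 TPM with Nrf2-Pink1 siRNA, against 52.5, 45.6 and 51.4 TPM with scramble and 53, 58.7 and 73.6 TPM with Pink1 siRNA (log2 difference -0.97, SE 0.115, limma adjusted p = 0.00106). BCAT1, which transaminates branched-chain amino acids in the cytosol, stood at 26.0, 25.2 and 29.7 TPM with Nrf2 siRNA and 22.8, 32.3 and 19.1 TPM with Nrf2-Pink1 siRNA, against 46.5, 49.8 and 55.0 TPM with scramble and 54.2, 54.2 and 55.1 TPM with Pink1 siRNA (log2 difference -1.01, limma adjusted p = 0.00118). APIP, an enzyme of methionine salvage, fell by 1.14 on the log2 scale (limma adjusted p = 0.000559) and stood at 9.52 to 11.9 TPM with Nrf2 siRNA and 17.5 to 28.5 TPM without it. LAMTOR1, which anchors the Ragulator complex to lysosomes, fell by 0.94 on the log2 scale (limma adjusted p = 0.00118) and stood at 118 to 157 TPM with Nrf2 siRNA and 209 to 307 TPM without it. COL4A5, a basement membrane collagen chain, fell by 0.94 on the log2 scale (limma adjusted p = 0.0117). Of these 6 genes each was called in all 12 fits that leave out a sample.

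The falls of SUCLG2 and GJA1 rested on fewer samples. SUCLG2, a subunit of succinyl-CoA ligase, stood at 20.1, 14.4 and 20.8 TPM with Nrf2 siRNA and 13.2, 26.3 and 24.1 TPM with Nrf2-Pink1 siRNA, against 36.1, 36.7 and 31.3 TPM with scramble and 33.5, 38.1 and 34.0 TPM with Pink1 siRNA (log2 difference -0.825, limma adjusted p = 0.0225). It was called in 5 of 12 leave-outs, those without Nrf2 siRNA replicate 1, any Nrf2-Pink1 siRNA replicate or Pink1 siRNA replicate 3 (log2 difference from -0.91 to -0.70). GJA1, the gap junction protein connexin 43, stood at 66.4, 33.3 and 47.7 TPM with Nrf2 siRNA and 34.4, 65.5 and 63.5 TPM with Nrf2-Pink1 siRNA, against 167, 131 and 141 TPM with scramble and 81.4, 82.0 and 70.0 TPM with Pink1 siRNA (log2 difference -1.08, SE 0.226, limma adjusted p = 0.0461). GJA1 was called in 3 of 12 leave-outs, those without Nrf2-Pink1 siRNA replicate 2 or 3 or Pink1 siRNA replicate 3 (from -1.21 to -0.91). IDH2 and SUCLG2 were the called genes among 20 of the TCA cycle, whose median log2 difference was -0.06, and GJA1 was the called gene among 12 of epithelial junctions and keratins.

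A group of genes that respond to hypoxia-inducible factors (HIF) rose, among them CA9, SPAG4 and LOX. These factors are switched off by oxygen-dependent hydroxylases and, when active, raise glycolysis, pH regulation and collagen-modifying enzymes. Of 26 HIF-responsive genes tested, 8 rose, 0 fell and 18 did not pass, where 0.420% of all genes rose, and the list's median log2 difference was 0.36. CA9, a surface carbonic anhydrase, stood at 254, 442 and 338 TPM with Nrf2 siRNA and 293, 266 and 491 TPM with Nrf2-Pink1 siRNA, against 96.9, 127 and 130 TPM with scramble and 169, 196 and 201 TPM with Pink1 siRNA (log2 difference 1.18, SE 0.188, limma adjusted p = 0.00886). SPAG4, a nuclear envelope protein, stood at 15.9, 22.9 and 10.8 TPM with Nrf2 siRNA and 11.5, 17.8 and 15 TPM with Nrf2-Pink1 siRNA, against 2.67, 3.21 and 5.87 TPM with scramble and 6.84, 4.07 and 8.43 TPM with Pink1 siRNA (log2 difference 1.47, SE 0.232, limma adjusted p = 0.00886). LOX, which crosslinks collagen and elastin, stood at 584, 715 and 618 TPM with Nrf2 siRNA and 512, 634 and 670 TPM with Nrf2-Pink1 siRNA, against 396, 334 and 310 TPM with scramble and 366, 412 and 397 TPM with Pink1 siRNA (log2 difference 0.75, SE 0.110, limma adjusted p = 0.00453). In all 3 genes the 12 samples were apart, and each was called in all 12 leave-outs. BNIP3, a mitophagy receptor, rose by 0.78 on the log2 scale (limma adjusted p = 0.0162) and stood at 106 to 205 TPM with Nrf2 siRNA and 84.8 to 102 TPM without it. Its call ended without Nrf2 siRNA replicate 3 or scramble replicate 2, and its log2 difference lay between 0.70 and 0.91 over the leave-outs. The other 4 that rose were P4HA2, PLOD1, NDRG1 and BHLHE40, the first pair being collagen hydroxylases, with log2 differences of 0.73, 0.64, 0.755 and 0.545. They were picked after their values were seen. All 4 calls held without Nrf2-Pink1 siRNA replicate 1 and without Pink1 siRNA replicate 3. Those of P4HA2, NDRG1 and PLOD1 also held without Nrf2-Pink1 siRNA replicate 3, that of P4HA2 without Nrf2-Pink1 siRNA replicate 2 or Nrf2 siRNA replicate 1, and that of NDRG1 without Nrf2 siRNA replicate 2. They ended without each of the other samples, with log2 differences over the leave-outs from 0.66 to 0.82 for P4HA2, 0.58 to 0.71 for PLOD1, 0.61 to 0.81 for NDRG1 and 0.485 to 0.615 for BHLHE40. HIF1A itself had a log2 difference of 0.005 (limma adjusted p = 0.997).

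The count of 8 HIF-responsive genes moved with single samples, as the count over all genes did. The HIF-responsive count was 5, 5 and 3 without Nrf2 siRNA replicate 1, 2 or 3, and 13, 5 and 7 without Nrf2-Pink1 siRNA replicate 1, 2 or 3. It was 4, 3 and 4 without scramble replicate 1, 2 or 3, and 4, 4 and 9 without Pink1 siRNA replicate 1, 2 or 3. The list's mean in a sample, taken as log2(TPM + 1) over the mean of the samples without Nrf2 siRNA, was 0.44, 0.615 and 0.53 with Nrf2 siRNA and 0.12, 0.46 and 0.58 with Nrf2-Pink1 siRNA. It was -0.03, -0.07 and -0.04 with scramble and -0.08, 0.05 and 0.17 with Pink1 siRNA. Nrf2-Pink1 siRNA replicate 1 thus lay among the Pink1 siRNA samples, while the other 5 samples with Nrf2 siRNA lay above all 6 without it. The share of TPM taken by ENSG00000226958 was 41.4% in Nrf2-Pink1 siRNA replicate 1, 15.5% in replicate 3 of that group and 24.9% in Pink1 siRNA replicate 3. It was 38.6% in Nrf2 siRNA replicate 2, which had the highest list mean, 0.615. A link between this share and the list's mean was not tested. With that identifier removed and the samples rescaled, the list's mean was 0.39, 0.755 and 0.53 with Nrf2 siRNA and 0.31, 0.40 and 0.27 with Nrf2-Pink1 siRNA. It was then 0.002, 0.002 and -0.04 with scramble and -0.02, 0.045 and 0.02 with Pink1 siRNA, so that all 6 samples with Nrf2 siRNA lay above all 6 without it. In that setting 8 genes of the list were called, but not the same 8, since the call of NDRG1 ended. Calls over all genes also rose in that setting, as given with the processing alternatives below.

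Glycolysis turns glucose into pyruvate and lactate, and several of its genes are also HIF-responsive. Of 23 glycolysis genes PFKFB4 and LDHA rose, 21 did not pass and 0 fell, where 0.420% of all genes rose. Of the 23 log2 differences 21 were above 0, as were 50.4% of those of all genes, and their median was 0.31. PFKFB4, which sets the level of the glycolytic activator fructose 2,6-bisphosphate, stood at 12.9, 29.5 and 19.1 TPM with Nrf2 siRNA and 13.5, 15.3 and 17 TPM with Nrf2-Pink1 siRNA, against 7.13, 7.34 and 8.09 TPM with scramble and 5.50, 7.38 and 8.23 TPM with Pink1 siRNA (log2 difference 1.145, SE 0.166, limma adjusted p = 0.00453). LDHA, the lactate dehydrogenase subunit that favours lactate, stood at 2311, 2649 and 2578 TPM with Nrf2 siRNA and 1539, 2329 and 3321 TPM with Nrf2-Pink1 siRNA, against 1445, 1404 and 1484 TPM with scramble and 1307, 1411 and 1463 TPM with Pink1 siRNA (log2 difference 0.755, SE 0.148, limma adjusted p = 0.0309). All 12 samples were apart for both. LDHA was called in 2 of 12 leave-outs, those without Nrf2-Pink1 siRNA replicate 1 or 3 (log2 difference from 0.64 to 0.89). The number of called glycolysis genes was 5 without Nrf2-Pink1 siRNA replicate 1, 2 without replicate 3 of that group, and 1 without any other single sample. With ENSG00000226958 removed and the samples rescaled, it was 7. Calls over all genes also rose in that setting and without Nrf2-Pink1 siRNA replicate 1.

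The core of the HIF site, ACGTG on either strand, occurred in 21.4% of all RefSeq windows and in 32.6% of tested genes with a window. Of the HIF-responsive genes with a window 11 of 20 held it (55.0%), and of the glycolysis genes 15 of 22 (68.2%). Among all genes that rose it was 13 of 41 (31.7%), and among those that fell 10 of 34 (29.4%). The upstream stretches of CA9 (plus strand, chr9:35673880-35673927) and LDHA (plus strand, chr11:18394348-18394524) are shown because both genes rose, with each core in capitals. In LDHA a run of 6 capitals is the core read on both strands, overlapping.
CA9: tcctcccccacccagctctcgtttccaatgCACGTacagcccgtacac
LDHA, first window: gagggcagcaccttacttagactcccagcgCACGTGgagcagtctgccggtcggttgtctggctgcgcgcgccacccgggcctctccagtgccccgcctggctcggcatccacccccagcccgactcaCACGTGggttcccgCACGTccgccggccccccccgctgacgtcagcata

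Matrix and mesenchymal genes also rose, in 4 of the 23 tested, where 0.420% of all genes rose, with 0 falling and a list median of 0.195 beside 0.002 for all genes. The number called was 4 without Nrf2-Pink1 siRNA replicate 1 or Pink1 siRNA replicate 3, 3 without Nrf2 siRNA replicate 2 or Nrf2-Pink1 siRNA replicate 2 or 3, and 2 without any other single sample. MMP2, a gelatinase that degrades basement membrane collagen, stood at 93.3, 84.2 and 80.4 TPM with Nrf2 siRNA and 70.8, 63.2 and 64.6 TPM with Nrf2-Pink1 siRNA, against 40.1, 35.2 and 41.0 TPM with scramble and 30.7, 34.2 and 33.1 TPM with Pink1 siRNA. Its log2 difference of 1.06 had an SE of 0.0892 (limma adjusted p = 6.42e-05), and all samples were apart. THBS1, the adhesive matrix protein thrombospondin 1, stood at 280, 256 and 247 TPM with Nrf2 siRNA and 226, 269 and 277 TPM with Nrf2-Pink1 siRNA, against 162, 163 and 141 TPM with scramble and 143, 161 and 161 TPM with Pink1 siRNA (log2 difference 0.735, SE 0.0915, limma adjusted p = 0.00128). MMP2 and THBS1 were called in all 12 leave-outs. FN1, fibronectin, stood at 731, 496 and 688 TPM with Nrf2 siRNA and 688, 722 and 1234 TPM with Nrf2-Pink1 siRNA, against 364, 396 and 374 TPM with scramble and 391, 415 and 556 TPM with Pink1 siRNA (log2 difference 0.83, limma adjusted p = 0.0257). TIMP3, a matrix-bound inhibitor of metalloproteases that pigment epithelium deposits, rose by 0.59 on the log2 scale (limma adjusted p = 0.0492), with overlap between Nrf2-Pink1 siRNA at 293 to 421 TPM and Pink1 siRNA at 242 to 296 TPM. FN1 was called in 5 of 12 leave-outs, those without Nrf2 siRNA replicate 2, any Nrf2-Pink1 siRNA replicate or Pink1 siRNA replicate 3 (log2 difference from 0.70 to 0.91), and TIMP3 in 2, those without Nrf2-Pink1 siRNA replicate 1 or Pink1 siRNA replicate 3 (from 0.52 to 0.67). TIMP3 was also not called under 8 other settings, among them the 4-group model, no covariate and either technical replicate alone. P3H1, a collagen prolyl hydroxylase, rose by 0.68 on the log2 scale (limma adjusted p = 0.00886), the call among the 15 tested genes of the collagen list. That list does not hold the collagen chain COL4A5, which fell, or the collagen hydroxylases PLOD1 and P4HA2, which rose. VIM, the mesenchymal intermediate filament, stood at 4559 to 7971 TPM with Nrf2 siRNA and 3954 to 5472 TPM without it (log2 difference 0.27, limma adjusted p = 0.462). The repressor ZEB1 had a log2 difference of 0.14 (limma adjusted p = 0.747), and CDH1, the epithelial cadherin, was too low to test at 0 to 0.795 TPM. Of the 23 tested genes of the TGF-beta and BMP list 0 passed in limma, and 1 passed without any one of the Nrf2-Pink1 siRNA samples. An unadjusted p under 0.05 was met in 7 of the 23 and in 11.2% of all genes. SMAD9, a BMP signal transducer outside the list and picked after its values were seen, fell (log2 difference -0.67, limma adjusted p = 0.0231). It was called in 6 of 12 leave-outs, and not with no filter or with technical replicate 2 alone. TGFBI, a matrix protein named for its induction by TGF-beta and one of the most abundant of the list, stood at 2887 to 4865 TPM with Nrf2 siRNA and 2309 to 2923 TPM without it (limma adjusted p = 0.0736).

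In the insulin-like growth factor axis the binding proteins IGFBP5 and IGFBP3 rose among 10 genes tested. IGFBP5 stood at 53.5, 42.5 and 57.8 TPM with Nrf2 siRNA and 53.7, 53.7 and 46.2 TPM with Nrf2-Pink1 siRNA, against 10.9, 12.2 and 10.4 TPM with scramble and 22.8, 23.7 and 27.2 TPM with Pink1 siRNA. This was the largest rise by the naming rule (log2 difference 1.56, SE 0.175, limma adjusted p = 0.000757). Both groups with Nrf2 siRNA stood at a like level, while Pink1 siRNA lay above scramble. IGFBP3 stood at 742, 754 and 674 TPM with Nrf2 siRNA and 571, 783 and 886 TPM with Nrf2-Pink1 siRNA, against 511, 380 and 310 TPM with scramble and 404, 457 and 388 TPM with Pink1 siRNA (log2 difference 0.85, SE 0.135, limma adjusted p = 0.00886). Both were called in all 12 leave-outs.

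**Figure D2:**
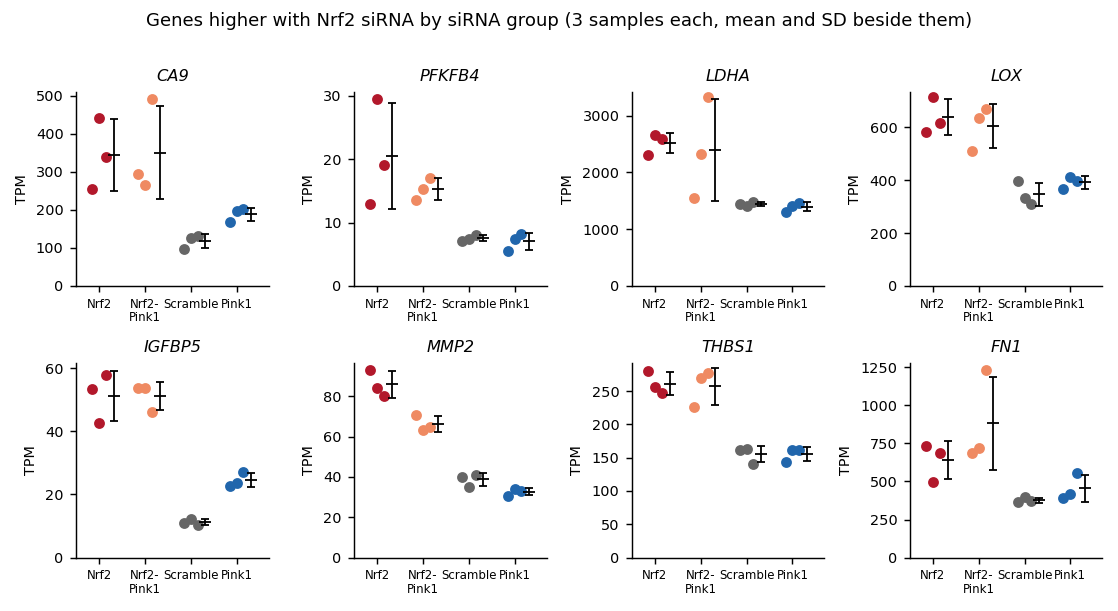
TPM of 8 genes that rose with Nrf2 siRNA in each biological sample (vertical axis, from 0), by siRNA group (horizontal axis), with the mean and SD of each group of 3 beside its points. IGFBP5 differs between scramble (10.4 to 12.2 TPM) and Pink1 siRNA (22.8 to 27.2 TPM), while its Nrf2 siRNA and Nrf2-Pink1 siRNA samples lie between 42.5 and 57.8 TPM.

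The other large rises came from a mixed set of secreted, membrane and structural proteins. SERPINE2, an extracellular inhibitor of thrombin and urokinase, stood at 27.2, 64.2 and 31.0 TPM with Nrf2 siRNA and 17.7, 17.8 and 41.4 TPM with Nrf2-Pink1 siRNA, against 10.4, 12.6 and 13.1 TPM with scramble and 8.27, 10.5 and 10.2 TPM with Pink1 siRNA (log2 difference 1.40, SE 0.231, limma adjusted p = 0.0118). FGF1, an acidic fibroblast growth factor, stood at 22.8, 30 and 22.8 TPM with Nrf2 siRNA and 14.9, 20.6 and 14.8 TPM with Nrf2-Pink1 siRNA, against 9.49, 11.3 and 9.43 TPM with scramble and 7.41, 4.33 and 8.62 TPM with Pink1 siRNA (log2 difference 1.23, SE 0.149, limma adjusted p = 0.00118). KRT34, a hair-type keratin with close relatives, rose by 1.23 on the log2 scale (limma adjusted p = 0.0167), and its call ended without scramble replicate 2 (log2 difference from 1.02 to 1.38 over the leave-outs). In the remaining 3 genes all 12 samples were apart. PTPRB, a receptor tyrosine phosphatase, stood at 8.34 to 14.3 TPM with Nrf2 siRNA and 4.12 to 6.08 TPM without it (log2 difference 1.05, limma adjusted p = 0.000559). SLC22A3, an organic cation transporter, stood at 16.6 to 29.6 TPM with Nrf2 siRNA and 8.04 to 13.2 TPM without it (log2 difference 1.045, limma adjusted p = 0.00293). GLIPR1, a secreted and membrane protein of the CAP family, stood at 42.7 to 88.6 TPM with Nrf2 siRNA and 29.6 to 34.1 TPM without it (log2 difference 0.93, limma adjusted p = 0.0044).

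Interferon-induced antiviral genes had the largest median difference of the 34 gene lists examined, and none of them passed the test. They are switched on when interferon binds its receptor, and their products block steps of viral growth. Of 30 antiviral effectors tested 0 were called by limma at an adjusted p under 0.05, while 28 had an unadjusted p under 0.05, which 11.2% of all genes had. All 30 log2 differences were above 0, from 0.18 to 2.975, with a median of 1.24. IFI6 stood at 1542, 3226 and 2241 TPM with Nrf2 siRNA and 353, 463 and 896 TPM with Nrf2-Pink1 siRNA, against 249, 1270 and 1175 TPM with scramble and 239, 287 and 132 TPM with Pink1 siRNA (log2 difference 1.48, SE 0.378, limma adjusted p = 0.0979). Within each Pink1 state the samples were apart, but scramble replicates 2 and 3 lay above all 3 Nrf2-Pink1 siRNA samples. IFITM3, a membrane protein that blocks virus fusion and has near-identical relatives, stood at 979, 2140 and 1453 TPM with Nrf2 siRNA and 398, 468 and 1021 TPM with Nrf2-Pink1 siRNA, against 276, 673 and 678 TPM with scramble and 287, 330 and 294 TPM with Pink1 siRNA (log2 difference 1.23, SE 0.281, limma adjusted p = 0.0655). The list's mean, over that of the samples without Nrf2 siRNA, was 1.26, 3.09 and 2.09 with Nrf2 siRNA and -0.305, 0.38 and 1.07 with Nrf2-Pink1 siRNA. It was -0.61, 1.05 and 0.90 with scramble and -0.59, -0.07 and -0.68 with Pink1 siRNA. Nrf2-Pink1 siRNA replicate 1 thus lay below the mean of the samples without Nrf2 siRNA, and without it 7 of the 30 genes were called. Without any other single sample 0 of the 30 were called. With ENSG00000226958 removed, Nrf2-Pink1 siRNA replicate 1 stood at -0.15 and 2 of the 30 genes were called. In both of these fits calls over all genes also rose, so the 7 and the 2 are not particular to this list.

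Of 16 genes of RNA sensing and interferon signalling 0 passed in limma, with a median log2 difference of 0.37. An unadjusted p under 0.05 was met in 7 of the 16 and in 11.2% of all genes. Of 17 MHC class I and antigen presentation genes 0 passed, with 4 at an unadjusted p under 0.05, and B2M had a log2 difference of 0.37 (limma adjusted p = 0.594). GBP1, an interferon-inducible GTPase, did rise. It stood at 45.7, 72.2 and 55.6 TPM with Nrf2 siRNA and 22.9, 34.0 and 41.7 TPM with Nrf2-Pink1 siRNA, against 18.1, 25.6 and 27.1 TPM with scramble and 19, 19.8 and 19.5 TPM with Pink1 siRNA (log2 difference 0.97, SE 0.172, limma adjusted p = 0.0174). The samples were apart within each Pink1 state, and the call ended without Nrf2 siRNA replicate 3 or scramble replicate 2 (log2 difference from 0.86 to 1.11 over the leave-outs).

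The core of the interferon-stimulated response element, GAAANNGAA on either strand, occurred in 8.11% of all RefSeq windows and in 8.84% of tested genes with a window. Of the antiviral effectors with a window 19 of 23 held it (82.6%). Among all called genes it was in 10 of 41 that rose (24.4%) and 1 of 34 that fell (2.94%). The upstream stretches of IFI6 (minus strand, chr1:27672247-27672378) and GBP1 (minus strand, chr1:89065296-89065364) are shown because they carry the core in a gene that was higher within both Pink1 states, with each core in capitals.
IFI6: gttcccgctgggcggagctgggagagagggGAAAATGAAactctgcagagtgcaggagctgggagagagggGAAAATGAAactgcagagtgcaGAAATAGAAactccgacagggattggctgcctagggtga
GBP1: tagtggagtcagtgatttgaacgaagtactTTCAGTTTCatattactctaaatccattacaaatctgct

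**Figure D3:**
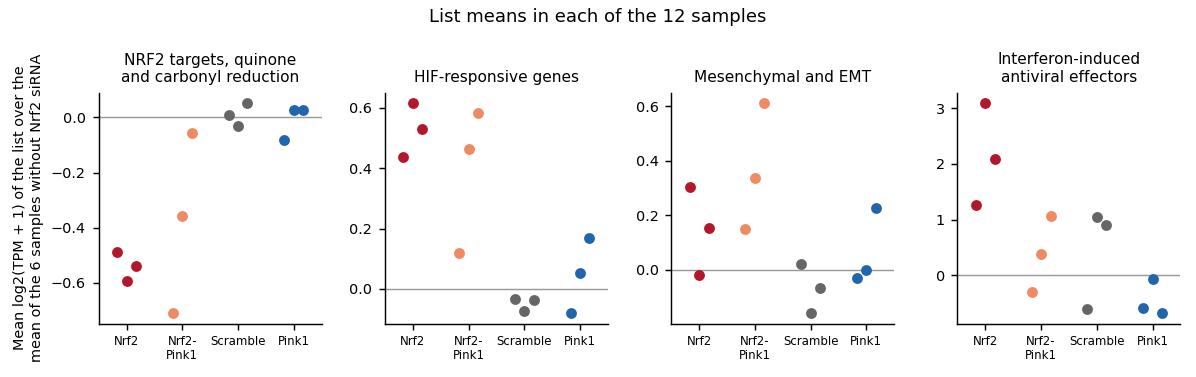
Mean log2(TPM + 1) of 4 gene lists in each biological sample, over the mean of the 6 samples without Nrf2 siRNA (vertical axis, log2, with its own range in each panel), by siRNA group (horizontal axis). The quinone and carbonyl list was below 0 in all 6 samples with Nrf2 siRNA. With Nrf2 siRNA the interferon-induced list ran between -0.305 in Nrf2-Pink1 siRNA replicate 1 and 3.09 in Nrf2 siRNA replicate 2.

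The contrasts that make up the comparison, Nrf2 siRNA against scramble and Nrf2-Pink1 siRNA against Pink1 siRNA, share no samples, so the genes of the first can be read in the second. Fitted alone, Nrf2 siRNA against scramble gave 64 calls of 13867 genes (0.462%), 45 higher (0.325%) and 19 lower (0.137%). Of the 19 lower genes all 19 were also lower with Nrf2-Pink1 siRNA than with Pink1 siRNA, as were 56.8% of all genes with a lower level, and in 17 (89.5%) the samples of that pair were apart in the same direction, as they were in 7.09% of all genes with a lower level. Their median log2 difference was -1.06 without Pink1 siRNA and -0.77 with it. Of the 45 higher genes 38 had the same sign with Pink1 siRNA (84.4%, against 52.5% of all genes with a higher level) and 20 were apart in the same direction (44.4%, against 4.70%). The other 7 had the opposite sign with Pink1 siRNA, and in 2 of them, TYRP1 (1.16 without and -0.776 with Pink1 siRNA) and CP (1.28 and -0.80), the samples were apart that way. Over the 45 their median log2 difference was 0.88 without Pink1 siRNA and 0.34 with it. Over all 13810 genes the 2 differences correlated with r = 0.17, and over the 4935 genes that averaged 20 TPM or more with r = 0.345, where genes are not independent. Nrf2-Pink1 siRNA against Pink1 siRNA, fitted alone, gave 2 calls of 13703 genes (0.0146%).

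The difference between the Pink1 states was tested by the interaction. By limma 0 of 13810 genes passed, with a lowest adjusted p of 0.0558, while 753 (5.45%) had an unadjusted p under 0.05. All 109 called genes had the same sign in both states, and 5 of them had an unadjusted interaction p under 0.05. The calls rest on the mean of the 2 state differences, which favours genes with like differences in both. These counts are therefore no separate evidence of a shared effect. In 80 of the 109 the log2 difference was larger in size without Pink1 siRNA. The same share over all genes tested was not counted, so the 80 cannot be read as a trait of the called genes. IGFBP5 had the smallest interaction p of the 109 (log2 difference 2.09 without and 1.03 with Pink1 siRNA, interaction -1.06, SE 0.211, limma adjusted p = 0.271). GJA1 differed by -1.60 without and -0.56 with Pink1 siRNA, and PLOD1 by 0.92 and 0.36. NFE2L2 itself differed by -2.03 without and -1.24 with Pink1 siRNA (interaction 0.79, SE 0.359, limma adjusted p = 0.9). NQO1 differed by -1.83 and -1.52, MMP2 by 1.13 and 0.998, and FGF1 by 1.24 and 1.22.

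**Figure D4:**
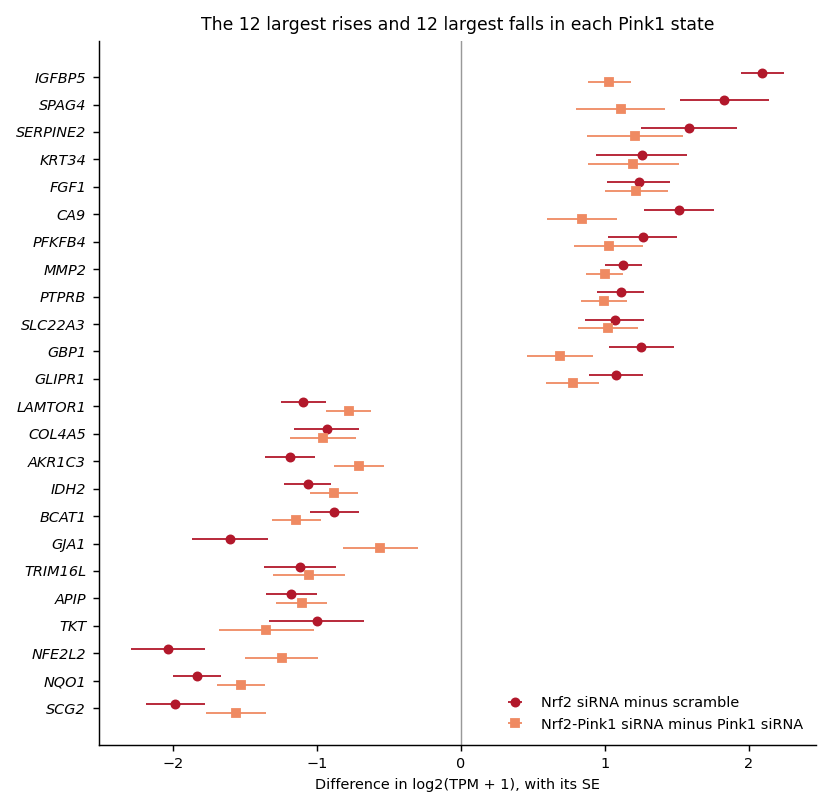
Difference in log2(TPM + 1), with its SE (horizontal axis), for the 12 largest rises and 12 largest falls (vertical axis), between Nrf2 siRNA and scramble (circles) and between Nrf2-Pink1 siRNA and Pink1 siRNA (squares), which share no samples. All 24 genes lie on the same side of 0 in both, which the naming rule requires; IGFBP5 (2.09 and 1.03) and GJA1 (-1.60 and -0.56) lie farthest apart.

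Several groups that might have moved with an oxidative stress factor held few or no calls. Of 70 respiratory chain and ATP synthase genes 0 passed in limma and 1 had an unadjusted p under 0.05, with a median log2 difference of -0.11. Over all genes tested, 11.2% had such a p. Of the 70 differences 57 were below 0, where 50.4% of those of all genes were above 0. ATP5F1B, the catalytic beta subunit, stood at 435 to 714 TPM with Nrf2 siRNA and 507 to 690 TPM without it, and COX7C at 268 to 549 TPM and 387 to 466 TPM. Of 10 mitochondrial antioxidants 0 passed and 2 had an unadjusted p under 0.05, with PRDX5 and GPX4 at log2 differences of -0.05 and -0.18. Of these 10 differences 9 were below 0. BNIP3 was the call among 22 mitophagy and autophagy genes, whose median log2 difference was 0.02, and LAMTOR1 among 22 of the PI3K, AKT and mTOR pathway, whose median was 0.08. Of 15 genes of pigment epithelium identity TIMP3 alone passed.

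Other lists without a call in limma were those of the unfolded protein response, p53, the cell cycle, sterols, ribosomes, complement and NF-kB. Over all genes tested, 11.2% had an unadjusted p under 0.05 in limma. Of 23 ATF4 and unfolded protein response genes 5 had an unadjusted p under 0.05, with the chaperones HSP90B1 and CALR at log2 differences of 0.29 and 0.23. Of 22 p53 and apoptosis genes 2 did, with the cycle inhibitor CDKN1A at 0.12 and the survival factor BCL2L1 at 0.20. Of 31 cell cycle genes 10 did, 26 log2 differences were below 0 with a median of -0.16, and the kinase CDK4 and its partner CCND1 stood at 0.05 and 0.09. Of 27 sterol and fatty acid genes 2 did, with the enzymes FDPS and FDFT1 at -0.18 and -0.02. Of 44 cytosolic ribosomal protein genes 0 did, with a median of 0.005, which was -0.06 under quantile normalization, and RPS2 and RPS3 stood at 0.03 and -0.03. Of 16 complement genes 6 did, with the protease C1R at 0.67 (limma adjusted p = 0.142) and the membrane inhibitor CD59 at 0.295. Of 10 NF-kB and cytokine genes 1 did, with the chemokine CCL2 at -0.47 and the inhibitor NFKBIA at -0.02. Without Nrf2-Pink1 siRNA replicate 1, 2 genes each were called among the unfolded protein response and complement lists, and without Nrf2-Pink1 siRNA replicate 2, 1 complement gene was. Calls over all genes also rose without Nrf2-Pink1 siRNA replicate 1. Some p53 and cell cycle genes outside these lists, picked after their values were seen, were called. CCNG1, HIPK2, RB1 and RBM38 fell (log2 differences -0.92, -0.71, -0.735 and -0.61, limma adjusted p = 0.0118, 0.0044, 0.0311 and 0.0309). PPP1R13L, an inhibitor of p53, rose (0.87, limma adjusted p = 0.00508). CCNG1, HIPK2 and PPP1R13L were called in all 12 leave-outs, RB1 in 4 and RBM38 in 3. RB1 and RBM38 were also not called with no filter or with either technical replicate alone, and RB1 not without the trend. The samples of RB1 were not apart within both Pink1 states. These genes are examples and do not describe all p53 and cell cycle genes outside the lists.

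**Figure D5:**
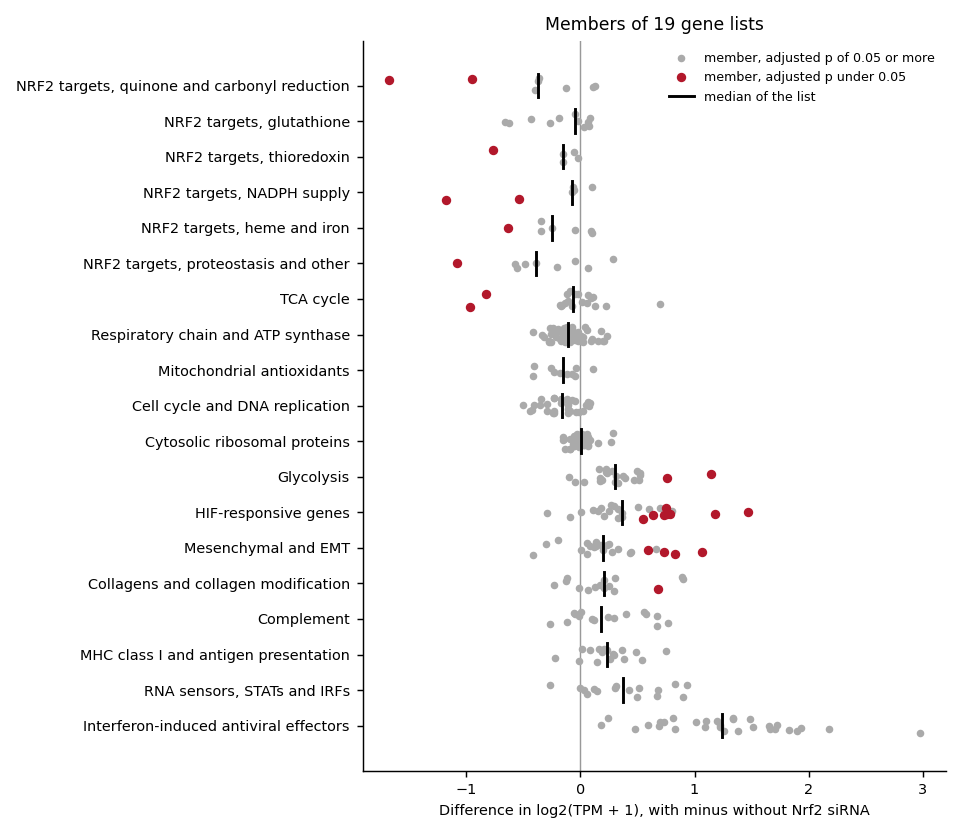
Difference in log2(TPM + 1) with minus without Nrf2 siRNA (horizontal axis) of every tested member of 19 gene lists (vertical axis, with vertical scatter for legibility only). Red points are members called by limma, grey points are not, and black bars are list medians, which run from -0.39 for proteostasis and other NRF2 targets to 1.24 for interferon-induced antiviral effectors.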

How the data were processed

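The authors deposited 1 table of TPM for 24 RNA sequencing samples, 12 biological samples with 2 technical replicates each. Per the submitters' processing notes the tools were STAR, RSEM and edgeR and the builds GRCh37 and hg19, with no role given for each. The deposited TPM keep no read depth, so no interval for counting error is given, and no count test was run.

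Technical pairs were averaged. The 13810 genes that averaged 1 TPM or more were tested as log2(TPM + 1) with limma 3.58.1 in R 4.3.3, with a mean-variance trend, terms for Nrf2 siRNA and Pink1 siRNA, and Benjamini-Hochberg adjustment over all of them, called under 0.05. Differences on this scale understate changes in low genes. The interaction came from the 4-group model. Exact permutation tests shuffled samples within each Pink1 state. A gene counts as apart when all 3 samples with the siRNA lie on one side of the 3 without it in both states. The procedure was tested on simulated data with independent normal noise for each gene and sample. That test cannot speak to shifts of a whole sample, such as those in the share of ENSG00000226958.

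Of the identifiers, 22789 were found in the name table and 19325 have a symbol. Promoter windows come from RefSeq on GRCh38.p14, matched by symbol. The table gives no coordinates, and none were converted between builds.

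The comparison, the 34 gene lists and their members were chosen with earlier results of these data known, so list counts and medians are descriptions, to be read against 0.420% of all genes called higher, 0.369% called lower and a median of 0.002. Named are NFE2L2, PINK1, a set of standard markers, the 12 largest rises and 12 largest falls among called genes with a symbol, an average of 5 TPM or more and samples apart, up to 4 called members per list (or the 2 most abundant where none was called), and the 3 called genes with the smallest interaction p. KEAP1, the small MAF genes, TXN, PRDX1, PRDX6, SRXN1, TRIM16 and HIF1A were added after their values were seen. Alternatives were other pseudocounts (0.1 and 5), no filter or a minimum of 5 TPM, other scalings, sample weights, single technical replicates, other models, each Pink1 state alone and each biological sample left out. A result for 1 item is not reported here.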

Additional observations from a re-analysis of the deposited data

Results flagged for a closer look

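Of 214 checks of single values or list means over 6 samples, 12 found a sample farther from the others than Dixon's test allows at the 95% level, and chance flags about 1 in 20.

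Among the NRF2 targets, TKT stood at 92.6 TPM in Nrf2-Pink1 siRNA replicate 3, against 198 to 281 TPM in the other 5 samples with Nrf2 siRNA. GCLM stood at 4.29 TPM in Nrf2 siRNA replicate 2, against 7.95 to 10.8 TPM in the other 5. Nrf2-Pink1 siRNA replicate 3 also had the highest ATP5F1B level, 714 TPM, against 435 to 515 TPM in the other 5. It held the lowest share of ENSG00000226958, 15.5% of TPM, and with that identifier removed and the samples rescaled ATP5F1B stood at 846 in it and 680 to 817 in the other 5, while TKT stood at 110 in it and 322 to 478 in the others. KDR, an endothelial receptor near the detection limit, stood at 0.23 TPM in Nrf2 siRNA replicate 2, against 0.965 to 1.48 TPM. It was the only endothelial marker tested, so the flag of that list's mean is the same value again. On the list scale it was -0.866, against -0.19 to 0.146 in the others (log2 over the samples without Nrf2 siRNA).

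Nrf2-Pink1 siRNA replicate 1 was low in 3 list means on that scale. The HIF-responsive list stood at 0.12, against 0.438 to 0.615 in the other 5 samples with Nrf2 siRNA. The mitophagy and autophagy list stood at -0.294, against 0.047 to 0.185. The PI3K, AKT and mTOR list stood at -0.186, against 0.009 to 0.107. This sample held the highest share of ENSG00000226958 (41.4% of TPM). With that identifier removed the HIF-responsive list stood at 0.313 in it and 0.274 to 0.755 in the other 5, the mitophagy list at -0.107 and -0.149 to 0.175, and the PI3K list at -0.003 and -0.207 to 0.215.

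Among the 6 samples without Nrf2 siRNA, Pink1 siRNA replicate 3 stood apart in 3 genes. APIP stood at 17.5 TPM, against 25.7 to 28.5 TPM in the other 5. FN1 stood at 556 TPM, against 364 to 415 TPM. PRDX5 stood at 316 TPM, against 263 to 278 TPM. PFKFB4 stood at 5.5 TPM in Pink1 siRNA replicate 1, against 7.13 to 8.23 TPM in the other 5.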

How the results depend on the processing

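The number of genes called, 109, was 64 with no filter on low values, 240 with median-of-ratios rescaling, 255 with quantile normalization, 234 with ENSG00000226958 removed, 65 with technical replicate 2 alone, 326 with sample weights (224 higher and 102 lower), 64 for Nrf2 siRNA against scramble alone and 2 for Nrf2-Pink1 siRNA against Pink1 siRNA alone. With each biological sample left out it ran from 43 to 223. It lay between 76 and 117 under the other alternatives. The 24 genes with the largest rises and falls gave 0 calls within the Pink1 siRNA state alone. The list members called, 30 in all, were 48 under quantile normalization, 47 with ENSG00000226958 removed, 56 with sample weights, 0 within the Pink1 siRNA state and 17 to 52 with a sample left out. The interaction, with 0 calls, had 3 with a minimum of 5 TPM, 2 each with median-of-ratios rescaling, quantile normalization and ENSG00000226958 removed, 504 with sample weights, and 0 to 4 with a sample left out. The causes were not tested. The median over all genes moved by at most 0.05 under any alternative.

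Of 37 called genes that the text names by rule, 7 lost the call with no filter, 7 with no covariate, 6 without the trend, 4 with either technical replicate alone, 3 with the replicate block, and 2 with the 4-group model or a pseudocount of 5. TIMP3 lost it under 8 such settings, GJA1 and ME1 under 6 each, PLOD1 under 3, TKT, LDHA and FN1 under 2 each, and KRT34, FGF1, GBP1, TRIM16L, P3H1 and SUCLG2 under 1 each. NDRG1 and BHLHE40, picked after their values were seen, lost it under 6 and 5. Among the genes named in the text, sign changes were met only in ones that were not called. With sample weights GSTP1 was 0.004, FDFT1 0.001 and RPS3 0.023. Within the scramble state GSTP1 was 0.086. Within the Pink1 siRNA state CCL2 was 0.145, CCND1 -0.136, CDK4 -0.024, FDPS 0.001, FDFT1 0.133, RPS2 -0.014, KDR 0.002 and ZEB1 -0.034. NFKBIA was 0.026 with technical replicate 2 alone, KDR 0.004 with technical replicate 1 alone, and RPS2 -0.199 under quantile normalization. With a sample left out GSTP1 ran from -0.076 to 0.046, NFKBIA from -0.102 to 0.059, PRDX5 from -0.119 to 0.021, FDFT1 from -0.108 to 0.062, RPS2 from -0.041 to 0.104 and RPS3 from -0.082 to 0.024.

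Replicate numbers did not pair the samples: of 18 same-numbered pairs, 1 had a correlation of deviations over 0.1 (range -0.085 to 0.113). With the replicate number as a block 101 genes were called, of which 83 were among the 109. Depth is unknown in TPM, so genes of a few TPM, such as SCG2 and KDR, have an unknown counting error.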

Other observations

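Among called genes that were picked out after their values were seen, the immune checkpoint ligand PDCD1LG2 stood at 14.5, 18.2 and 19.2 TPM with Nrf2 siRNA and 8.95, 16 and 15.7 TPM with Nrf2-Pink1 siRNA, against 10.3, 9.03 and 9.86 TPM with scramble and 6.69, 8.02 and 7.14 TPM with Pink1 siRNA (log2 difference 0.77, limma adjusted p = 0.0184). CD274, the other ligand of the same receptor, had a log2 difference of 0.89 (limma adjusted p = 0.0473). PDCD1LG2 was called in 8 of the 12 fits that leave out a sample and CD274 in 1. The integrin chain ITGB8 stood at 6.48 to 8.84 TPM with Nrf2 siRNA and 11.1 to 16.8 TPM without it (log2 difference -0.81, limma adjusted p = 0.000757), while ITGB5 stood at 333 to 482 TPM with Nrf2 siRNA and 194 to 345 TPM without it (log2 difference 0.67, limma adjusted p = 0.0157). ITGB8 was called in all 12 of those fits and ITGB5 in 9.

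SNORA73B, a small nucleolar RNA of a kind that mRNA libraries capture poorly, stood at 3.29, 0 and 0 TPM with Nrf2 siRNA and was listed at 0 in all 3 Nrf2-Pink1 siRNA samples, against 11.2, 11.3 and 7.95 TPM with scramble and 6.18, 3.55 and 5.54 TPM with Pink1 siRNA. It was called in limma (adjusted p = 0.000985) but not with technical replicate 1 alone.

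The smallest adjusted p-values of the interaction over all genes belonged to genes that were not called in the comparison of all 12 samples, although TYRP1 and CP were higher in Nrf2 siRNA against scramble fitted alone (limma adjusted p = 0.0357 and 0.0379). TYRP1, a melanosome enzyme, averaged 23.2 TPM with Nrf2 siRNA and 26.6 TPM with Nrf2-Pink1 siRNA, against 9.91 TPM with scramble and 45.5 TPM with Pink1 siRNA (interaction -1.93, limma adjusted p = 0.0558). CP, the ferroxidase ceruloplasmin, averaged 27.4 TPM with Nrf2 siRNA and 20.1 TPM with Nrf2-Pink1 siRNA, against 10.9 TPM with scramble and 35.0 TPM with Pink1 siRNA (interaction -2.08, limma adjusted p = 0.0558). In both genes the difference had opposite signs in the 2 Pink1 states, 1.16 and -0.776 for TYRP1 and 1.28 and -0.80 for CP without and with Pink1 siRNA, with the samples apart in the state with Pink1 siRNA, and neither interaction passed the threshold.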
